A study of Arabidopsis thaliana with 16 samples.

Results

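PLETHORA7 (PLT7) bound most of its sites as peaks with a median width of 332 to 387 bp in its 4 libraries, but a small set of its peaks stretched over 1000 bp or more of nuclear DNA. These broad peaks were selected on 1 measured value, their width from start to end as listed by the peak caller, in the 4 PLT7 libraries of the study. They numbered 1705 of 120465 nuclear PLT7 peaks and of 291528 nuclear peaks in all 16 libraries. Broad peaks that shared at least 1 bp were merged, which gave 881 regions on the 5 nuclear chromosomes, between 1000 and 2372 bp long with a median of 1150 bp.

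DNA affinity purification sequencing (DAP-seq) mixes fragmented genomic DNA with a tagged protein made in vitro, recovers the bound fragments and sequences them. Baits were 3xFLAG-PLT3, 3xFLAG-PLT5 and 3xFLAG-PLT7, with GFP as the control bait, and all DNA came from the Arabidopsis thaliana accession Col-0. Shoot apical meristems (SAMs) came from seedlings grown for 9 days on agar, and inflorescence meristems (IMs) from plants grown for 4 to 8 weeks on soil. Each replicate pooled about 500 meristems, and every bait was run with 2 replicates per tissue. The protein meets purified DNA without chromatin in this assay, so a peak is a site of binding in vitro and not an occupied site in the plant.

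PLT proteins belong to the AP2 domain transcription factors, and each carries a pair of AP2 domains that together contact an unusually long DNA sequence. PLT3, PLT5 and PLT7 act redundantly in the shoot, where they are known for the positioning of leaves and flowers around the stem and for local auxin production. A long peak can hold 1 long stretch of recovered DNA or several neighbouring summits that the peak caller joined. The fold enrichment used below is the height of a peak at its summit over the local background of its own library, on a linear scale.

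The sequences under the highest broad peaks were of different kinds, and 5 of them are shown as the 300 bp around the PLT7 summit, on the plus strand of TAIR10.1 from RefSeq. Of these 5, the 3 that held a match to the consensus of AINTEGUMENTA, the founding relative of the PLT proteins, come first. Among the windows of the highest regions that are not shown, the window at AT4G11373 also held 1 match. Those near AT5G29550, AT5G34431 and AGL36 and that at AT4G06696 held none. The choice of windows shown thus does not reflect how often the highest regions held a match. The consensus was searched as CACNNNTNCCNANG on both strands, with at most 1 mismatch among its 8 fixed bases, and matches are in capitals.
CYTOSLEEPER, chr1:5267938-5268237: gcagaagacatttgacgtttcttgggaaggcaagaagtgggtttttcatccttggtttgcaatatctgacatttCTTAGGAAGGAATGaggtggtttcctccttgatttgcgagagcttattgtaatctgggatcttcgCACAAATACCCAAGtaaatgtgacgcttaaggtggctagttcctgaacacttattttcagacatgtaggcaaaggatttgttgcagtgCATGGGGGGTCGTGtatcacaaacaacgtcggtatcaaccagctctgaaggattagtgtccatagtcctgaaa
near AT5G35760, chr5:13932863-13933162: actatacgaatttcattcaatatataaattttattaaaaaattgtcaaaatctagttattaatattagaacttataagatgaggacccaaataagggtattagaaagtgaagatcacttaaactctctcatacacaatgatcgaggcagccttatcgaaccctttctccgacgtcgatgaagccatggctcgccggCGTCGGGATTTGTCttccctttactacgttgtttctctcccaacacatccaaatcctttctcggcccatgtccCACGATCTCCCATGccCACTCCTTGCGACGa
near AT2G07664, chr2:3258790-3259089: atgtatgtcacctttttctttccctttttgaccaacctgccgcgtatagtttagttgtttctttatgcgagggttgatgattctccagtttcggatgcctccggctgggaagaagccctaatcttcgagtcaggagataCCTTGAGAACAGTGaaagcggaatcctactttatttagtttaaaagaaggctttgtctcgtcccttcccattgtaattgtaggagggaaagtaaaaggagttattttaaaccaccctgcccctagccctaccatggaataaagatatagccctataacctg

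The window at CYTOSLEEPER held 3 matches, of which 1 was exact, the window near AT5G35760 held 3 and the window near AT2G07664 held 1. The other pair among the windows shown held no match and is given for its repeats. In the first, near AT1G40104, capitals mark the heptamer of plant telomeres (TTTAGGG or its complement CCCTAAA), present 5 times in the window and 22 times in the whole region. In the second, near AT3G33058, capitals mark the first unit of a tandem repeat, since the window was 96.7% identical to itself after a shift of 178 bp.
near AT1G40104, chr1:15094440-15094739: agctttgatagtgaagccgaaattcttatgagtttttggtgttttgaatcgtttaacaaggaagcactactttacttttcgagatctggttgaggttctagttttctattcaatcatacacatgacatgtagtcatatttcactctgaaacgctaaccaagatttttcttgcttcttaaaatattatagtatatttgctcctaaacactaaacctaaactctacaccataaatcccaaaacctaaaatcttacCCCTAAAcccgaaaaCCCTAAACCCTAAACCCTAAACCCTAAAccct
near AT3G33058, chr3:13591506-13591805: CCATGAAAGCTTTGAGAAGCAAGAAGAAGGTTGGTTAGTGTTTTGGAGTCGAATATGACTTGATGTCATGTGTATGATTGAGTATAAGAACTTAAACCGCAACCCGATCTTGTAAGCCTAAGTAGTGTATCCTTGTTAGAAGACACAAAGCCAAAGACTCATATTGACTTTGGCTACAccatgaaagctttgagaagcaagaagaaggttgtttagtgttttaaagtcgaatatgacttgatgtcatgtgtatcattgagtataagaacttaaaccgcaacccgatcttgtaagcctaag

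More broad peaks were listed for the IM than for the SAM. The 2 SAM libraries held 357 and 196 broad peaks, and the 2 IM libraries held 615 and 537. These were 1.18%, 0.739%, 1.91% and 1.7% of the nuclear peaks of their library, so that the lowest IM share exceeded the highest SAM share. Broad peaks covered between 2.26% and 5.17% of all bases in nuclear PLT7 peaks. The median width of a broad peak differed little between the libraries, from 1123 to 1138 bp, and 19, 7, 45 and 30 peaks reached 1500 bp. The narrowest peak listed was also longer for the IM (248 bp in both replicates) than for the SAM (235 and 231 bp), as was the median width of all peaks (387 and 380 bp against 358 and 332 bp). The peak lists give no sequencing depth, and its part in the difference between tissues was not tested.

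Broad peaks were rarer for PLT5 and GFP than for PLT7 in every library, but not for PLT3. PLT5 libraries held 18 to 59 broad peaks, and GFP libraries 0 to 37. PLT3 libraries held 205 to 1288, the highest number being that of PLT3 IM replicate 1, a library that stood apart with a smallest peak of 290 bp and with 4.49% of its nuclear peaks broad. Its values are therefore also given separately below.

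The fold enrichment of broad PLT7 peaks had a median of 5.62 and 5.02 in the SAM replicates and of 5.60 and 5.25 in the IM replicates. Other PLT7 peaks had medians between 3.51 and 3.71. Height and width were measured on the same peaks, so these values describe the selection and were not tested. The lowest broad peak had a fold enrichment of 2.15 and the highest of 17.9, both in the IM. Peaks just inside the limit of the selection were much like those just outside it. Peaks of 1000 to 1049 bp had median fold enrichments of 4.88 to 5.71, and peaks of 950 to 999 bp had medians of 5.01 to 5.39.

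Breadth recurred in part between libraries, whereas the presence of a PLT7 peak recurred almost without exception. Of the 881 regions, 424 were broad in 1 library, 209 in 2, 129 in 3 and 119 in all 4, the last being 13.5% (95% Wilson interval 11.4 to 15.9%, counting error only). A PLT7 peak of any width was present in all 4 libraries in 864 regions, in 3 libraries in 16 regions and in 2 libraries in 1 region. Regions broad in at least 1 library of each tissue numbered 332, regions broad only in the IM 473, and regions broad only in the SAM 76. There were 118 regions that were broad in both IM libraries and in no SAM library, and 7 with the reverse pattern.

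Where a region was not broad in a library, it held either several separate PLT7 peaks or 1 narrower peak, at similar frequency. In the SAM libraries, 264 of the 524 regions that were not broad in replicate 1 and 333 of the 685 in replicate 2 held several separate PLT7 peaks. In the IM libraries the numbers were 126 of 266 and 175 of 344. All but 1 to 12 of the others held 1 narrower peak, whose median width was between 687 bp in SAM replicate 2 and 877 bp in IM replicate 2.

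Sharing a tissue did not set the recurrence alone. Of the broad peaks of SAM replicate 1, 40.6% were also broad in SAM replicate 2, but 75.4% and 69.2% were also broad in the IM replicates. Of the broad peaks of IM replicate 1, 56.4% were also broad in IM replicate 2, 43.7% in SAM replicate 1 and 26.0% in SAM replicate 2. For peaks of any other library, the share was lowest when looked up in SAM replicate 2 and highest when looked up in IM replicate 1, the libraries with the fewest and the most broad peaks.

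**Figure D1:**
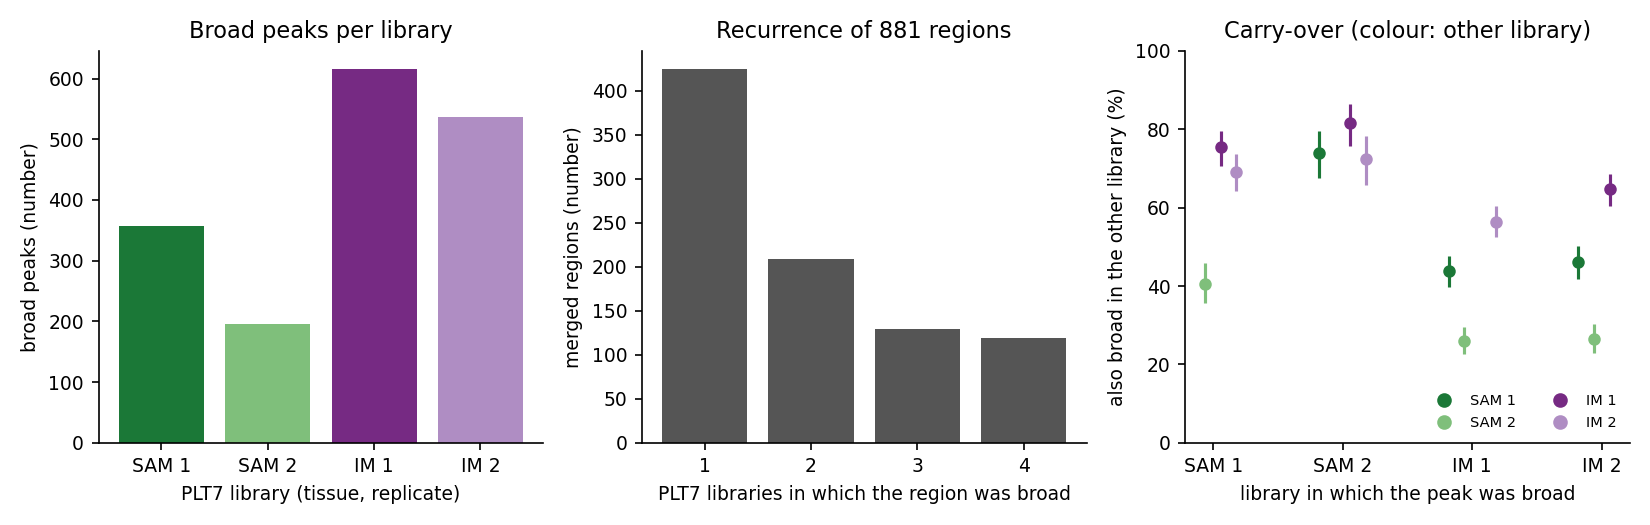
Left, number of broad peaks in each PLT7 library (tissue and replicate). Middle, number of merged regions by the number of PLT7 libraries in which they were broad, falling from 424 in 1 library to 119 in all 4. Right, share of the broad peaks of the library on the x axis that were also broad in another library, given by colour, with 95% Wilson intervals. Shares looked up in SAM replicate 2 were between 26.0% and 40.6%, the lowest in every column that has them.

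Regions that recurred more often were somewhat wider and higher. The median width rose from 1096 bp in regions broad in 1 library to 1275 bp in regions broad in all 4, and the median fold enrichment from 5.07 to 5.68. Both quantities belong to the selected peaks and are given as a description.

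PLT3 peaks touched nearly every broad PLT7 region. A PLT3 peak shared at least 1 bp with 99.2% and 95.2% of the 881 regions in the SAM replicates. In the IM replicates the shares were 99.4% and 99.2%, and 832 regions were touched in all 4 PLT3 libraries. Such shares, also those of PLT5 and GFP below, grow with the length of a region. They were not counted for other PLT7 peaks, which are compared at the summit below. No region was without a PLT3 peak in all of them. Counted by summits, a region held 1.25 ± 0.106 PLT3 peaks (SD over 4 libraries). Between 539 and 772 regions held exactly 1 PLT3 summit, and none held more than 3.

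A broad PLT7 region thus held 1 PLT3 summit more often than several. A count of summits cannot tell 1 long site from several that the peak caller joined. At least 2 PLT3 summits lay in 28.6% and 33.9% of the regions with SAM DNA and in 10.8% and 31.6% with IM DNA, where the low value is that of PLT3 IM replicate 1. In this library 72.1% of the regions touched a PLT3 peak that was itself broad, against 17.6% to 45.5% in the other 3. Without it, the mean was 1.30 ± 0.0180 PLT3 summits per region (SD, n = 3). Where a region held several PLT3 summits, neighbouring summits lay a median of 639 to 728 bp apart. Per kilobase, PLT3 summits were less dense in the regions (0.907 to 1.10) than in other PLT7 peaks (1.73 to 2.15).

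PLT5 peaks were fewer and divided the regions. They touched 53.8% and 37.8% of the regions with SAM DNA and 69.4% and 66.7% with IM DNA. The mean was 0.644 ± 0.168 PLT5 summits per region (SD over 4 libraries), and at least 2 summits were found in 4.43% to 10.3% of the regions. The density was 0.51 and 0.35 PLT5 summits per kilobase of the regions with SAM DNA and 0.66 and 0.62 with IM DNA. In other PLT7 peaks it was close to this, at 0.53, 0.32, 0.64 and 0.60 in the same order. A PLT5 peak was present in all 4 libraries in 267 regions and in none in 149. The more PLT5 libraries held a peak, the higher the PLT7 fold enrichment of the region was, with medians of 4.07, 4.51, 4.98, 5.66 and 6.67 for 0 to 4 libraries. These medians share the DNA of each tissue and the depth of each PLT5 library, and they are given as a description without a test.

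GFP peaks touched 7.83% and 7.95% of the regions with SAM DNA and 15.6% and 11.8% with IM DNA. GFP summits per kilobase numbered 0.0565 and 0.0584 in the regions with SAM DNA and 0.109 and 0.0895 with IM DNA. In other PLT7 peaks the densities were 0.0490, 0.0509, 0.0973 and 0.0685, in the same order. No GFP peak was listed in any library for 655 regions. The median PLT7 fold enrichment was 5.33 in these, 5.09, 4.89 and 4.61 where 1, 2 or 3 GFP libraries had a peak, and 7.41 in the 12 regions where all 4 did. A fold enrichment relates to the background of its own library only.

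Whether broad PLT7 peaks are also bound by the other proteins was tested at the summit, a single base. The length of the PLT7 peak could thus not add overlap. The length of the other bait's peak still could, and its part was not tested. A PLT3 peak of the same tissue and replicate lay over the summit of 98.6% and 96.4% of the broad peaks with SAM DNA and of 98.5% and 96.5% with IM DNA. For other PLT7 peaks the shares were 82.9%, 69.5%, 78.2% and 74.7%, in the same order. The difference was 21.2 ± 4.63 percentage points (SD over 4 libraries) and positive in 4 of 4. An exact permutation test over the signs of the 4 library differences, two-sided, gave p = 0.13, which is the smallest value that 4 libraries allow, so no comparison of this kind can pass 0.05.

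The difference was larger for PLT5. Its peaks lay over the summit of 57.1% and 48.0% of the broad peaks with SAM DNA and of 63.4% and 59.2% with IM DNA, against 19%, 12.8%, 26% and 24.8% of other peaks. The difference was 36.3 ± 1.78 percentage points and again positive in 4 of 4 libraries (exact permutation test, p = 0.13). It exceeded its spread between libraries many times over. That spread is between assays of the same Col-0 genome and does not measure the spread between sites. For GFP, the shares were 1.96%, 3.06%, 2.60% and 2.79% of broad peaks against 1.43%, 1.3%, 2.84% and 1.77% of other peaks, a difference of 0.768 ± 0.839 points that was positive in 3 of 4 libraries and within its own spread (exact permutation test, p = 0.25).

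**Figure D2:**
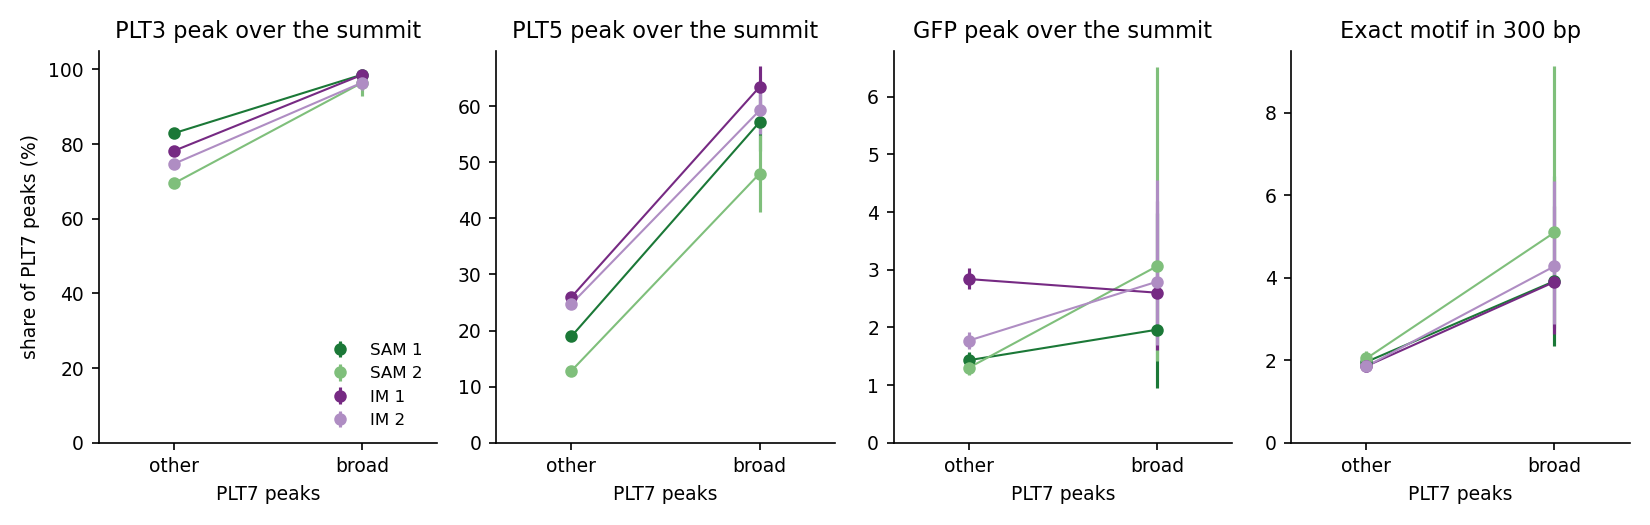
Share of PLT7 peaks whose summit lies in a peak of PLT3, PLT5 or GFP of the same tissue and replicate, or whose 300 bp summit window holds an exact consensus match, for other and broad PLT7 peaks of each library. Points are libraries joined by lines, with 95% Wilson intervals, and each panel has its own y axis. All 4 lines rise for PLT3, PLT5 and the motif, whereas for GFP the line of IM replicate 1 falls from 2.84% to 2.60%.

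Broad peaks were higher than other peaks, and PLT5 peaks were found more often at high PLT7 peaks of any width. The comparison was therefore repeated within classes of PLT7 fold enrichment, a choice made after the data were seen. At a fold enrichment under 4, PLT5 lay over 18.4% to 30% of broad summits and 3.604% to 10.5% of other summits. At 6 to 7 the shares were 66.2% to 82.3% and 50.1% to 66.1%, and at 8 or more they were 93.6% to 100% and 82.1% to 91.9%. The share was higher for broad peaks in 24 of 24 classes (6 in each library), by 5.41 to 36.3 percentage points. Height was not equal within every class. Under 4, the median fold enrichment was 3.368 to 3.511 for broad and 2.915 to 2.995 for other peaks. At 8 or more, broad peaks were higher in SAM replicate 2 (10.88 against 8.737) and IM replicate 2 (9.279 against 8.8). They were lower there in SAM replicate 1 (8.646 against 8.905) and IM replicate 1 (9.015 against 9.03). The share of 100% at 8 or more rests on 6 broad peaks of SAM replicate 2. With both kinds of peak restricted to a fold enrichment at or above the broad median of the library, the PLT5 difference fell to 17.7 ± 3.02 points and the PLT3 difference to 3.42 ± 1.97 points, each positive in 4 of 4 libraries. The GFP difference was 1.80 ± 0.822 points under this restriction, likewise positive in 4 of 4, and the exact permutation test gave p = 0.13 for each bait.

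**Figure D3:**
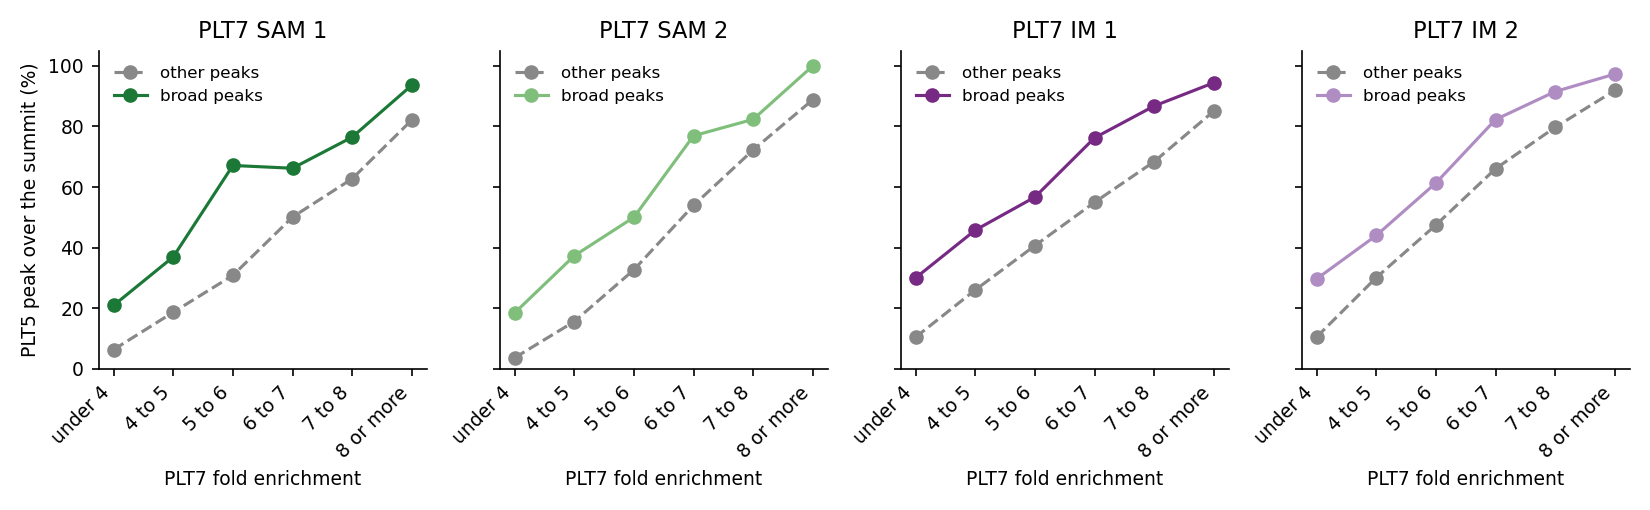
Share of PLT7 summits that lie in a PLT5 peak of the same tissue and replicate (y axis) by class of PLT7 fold enrichment (x axis), in each PLT7 library, for broad and for other peaks. Both lines rise with PLT7 fold enrichment, and the line of the broad peaks lies above that of the other peaks in every class.

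The fold enrichment of PLT3 and PLT5 within the regions was compared between tissues. Over the 832 regions with a PLT3 peak in all 4 libraries, the median of the highest PLT3 fold enrichment was 3.27 and 3.01 with SAM DNA and 3.37 and 3.25 with IM DNA. The SAM was lower by 0.172 on average, and the groups overlapped (exact permutation test, two-sided, p = 0.667). Over the 267 regions with a PLT5 peak in all 4 libraries, the medians were 2.32 and 2.36 with SAM DNA and 2.43 and 2.47 with IM DNA. The groups did not overlap, and the SAM was lower by 0.109 (exact permutation test, p = 0.333, the smallest value that 2 against 2 libraries allow).

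An exact match to the consensus lay within 150 bp of the summit in 3.92% and 5.10% of the broad peaks with SAM DNA and in 3.90% and 4.28% with IM DNA. Other PLT7 peaks held one in 1.96%, 2.05%, 1.86% and 1.86% of cases. The difference was 2.37 ± 0.50 percentage points, positive in 4 of 4 libraries (exact permutation test, p = 0.13). Windows of the same length 2000 bp away held an exact match beside 0 to 0.510% of broad peaks and 0.319% to 0.334% of other peaks. With at most 1 mismatch, matches were found in 24.7% to 28.1% of broad and 23.3% to 24.1% of other summit windows.

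Over the whole length of the regions, the consensus was no denser than in other PLT7 peaks. Exact matches occurred at 0.0518 per kilobase in the regions, 0.0555 in other PLT7 peaks and 0.0124 in the nuclear genome. With at most 1 mismatch, the densities were 0.762, 0.824 and 0.401 per kilobase. Under that rule 502 regions (57.0%) held at least 1 match, 211 held at least 2 and the highest number was 8. An exact match was present in 53 regions.

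The broad peaks lay more often in the pericentromeric parts of the chromosomes and in pseudogenes. In Arabidopsis, the pericentromeric parts are rich in transposable elements, many of which are annotated as pseudogenes. Within 2 Mb of the longest assembly gap of its chromosome, a mark for the centromere, lay 30.5%, 30.1%, 27.6% and 30.2% of the broad peaks of the 4 libraries (SAM, then IM) and 15.3% to 15.7% of other peaks. The summit lay in a pseudogene for 17.7% to 21.9% of broad and 8.46% to 8.58% of other peaks. Coding exons held 28.1% to 33.5% of broad and 37.0% to 38.7% of other summits, introns 5.60% to 8.78% and 10.9% to 11.2%, and untranslated exons 5.37% to 7.003% and 9.42% to 9.67%. Intergenic summits made up 33.5% to 36.7% and 30.8% to 32.3%. The mean GC content of the 300 bp around the summit was 39.1% to 39.3% for broad and 37.5% to 37.8% for other peaks.

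Part of this DNA is present more than 1 time in the genome. The 300 bp around the summit aligned at 90% identity or more over at least 150 bp to a further nuclear place for 17.4%, 19.4%, 16.3% and 18.1% of the broad peaks. For other peaks this share was 10.14% to 11.2%. Alignments to 10 or more places were found for 7.15% to 10.2% of broad and 2.75% to 3.13% of other peaks. Each alignment was counted as 1 place, also where alignments overlapped, as they can in a tandem repeat. Most regions, 738 of 881, had a summit window without such a copy, and their median fold enrichment was 5.32, close to the 5.17 of the 61 regions with 10 or more places. Of these 61 regions, 52 lay within 2 Mb of the assembly gap. How the authors' read filter treated reads that map to several places is not given in the sources used here.

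Whole regions also resembled each other. At 80% identity over at least 300 bp, 126 regions fell into 38 families. The largest held 16 regions on all 5 chromosomes, 14 of them with an intergenic summit, with fold enrichments from 3.26 to 7.78. The next held 10 regions, all of them pseudogenes, on 4 chromosomes, with fold enrichments from 3.63 to 6.20 and a PLT5 peak in all 10. It included AT1G39270 and AT2G13060, described below. The third family held 9 regions, all pseudogenes within 2 Mb of an assembly gap, of which none was broad in all 4 libraries. A tandem repeat at the summit (70% identity to itself after a shift of 5 to 200 bp) was found in 13 regions, and 4 regions matched the organelle genomes over a part of their length.

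The regions touched 840 annotated genes. Of these, 589 were protein-coding, which is 2.15% of the annotated protein-coding genes, and 207 were pseudogenes, which is 4.27% of theirs. At least 50% of the gene was covered for 219 genes (136 of them protein-coding), and the whole gene for 59. No gene was touched by 172 regions, 1 gene by 584, 2 genes by 113 and 3 genes by 12.

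Genes covered over at least 50% of their length by a region that was broad in all 4 libraries numbered 15 among the protein-coding genes. They were picked out after the values were seen. IAA15 (AT1G80390), which encodes an Aux/IAA protein, a class of repressors of auxin-responsive transcription, was covered whole by the region chr1:30221557-30222980. Its PLT7 peak was 1365 and 1286 bp wide with SAM DNA and 1380 and 1424 bp with IM DNA, and its fold enrichment was 8.26 and 5.86 with SAM DNA and 8.28 and 6.28 with IM DNA. The fold enrichments of the tissues overlapped, whereas both IM widths exceeded both SAM widths. PLT3 peaks there had fold enrichments of 4.05 and 3.53 with SAM DNA and 3.54 and 3.43 with IM DNA, and PLT5 peaks 2.46 and 2.36 with SAM DNA and 2.09 and 2.39 with IM DNA. A GFP peak was listed there in 1 of 4 libraries.

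SUFE2 (AT1G67810), an activator of cysteine desulfurase in iron-sulfur cluster assembly, AT1G36100, AT2G06675 and SMAP2 (AT3G24280) were covered whole as well. SERAT2;2 (AT3G13110), a serine acetyltransferase of cysteine synthesis, was covered over 57.9%, DCI1 (AT5G43280), a dienoyl-CoA isomerase, over 74.4%, and PMT1 (AT2G16120), a polyol and monosaccharide transporter, over 54.2%. The mean fold enrichment of the 15 genes' regions ranged from 3.81 to 7.92. PLT5 peaks were present in all 4 libraries for 7 of them.

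The region of the highest fold enrichment lay between genes on chromosome 1, at chr1:15093971-15095650, with its summit 12638 bp from the start of AT1G40104 and 290620 bp from the assembly gap. It carries the telomere-type heptamers printed above. PLT7 reached 16.1 and 15.6 with SAM DNA and 17.9 and 17.5 with IM DNA, so that both IM values exceeded both SAM values. PLT3 followed with 12.1 and 12.2 with SAM DNA and 12.4 and 11.6 with IM DNA, and PLT5 with 10.7 and 10.97 with SAM DNA and 10.06 and 11.2 with IM DNA. GFP had a peak of 3.43 in SAM replicate 1, none in SAM replicate 2 and peaks of 4.10 and 4.93 in the IM. The summit window gave 112 alignments.

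Among the regions broad in all 4 libraries, the next 2 also had high values for PLT3 and PLT5, and a GFP peak in every library. The region chr5:11185458-11186681, with its summit 1201 bp from the start of AT5G29550, had PLT7 values of 12.6 and 13.5 with SAM DNA and 12.96 and 12.5 with IM DNA. GFP values there were 3.39 and 4.93 with SAM DNA and 6.88 and 8.16 with IM DNA. The region chr5:12885290-12887102, near AT5G34431, had PLT7 values of 11.2 and 11.5 with SAM DNA and 11.1 and 10.97 with IM DNA. GFP values there were 4.66 and 4.80 with SAM DNA and 5.28 and 5.52 with IM DNA. Their summit windows gave 85 and 52 alignments.

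The tandem repeat near AT3G33058 was the only one of the 10 highest regions broad in all 4 libraries in which GFP exceeded PLT7 in a library. At chr3:13591048-13592439, PLT7 reached 8.58 and 8.51 with SAM DNA and 8.61 and 8.61 with IM DNA, while GFP reached 7.65 and 6.45 with SAM DNA and 10.8 and 13.9 with IM DNA. PLT5 peaks that shared at least 1 bp with the region had 11.9 and 12.5 with SAM DNA and 11.7 and 11.8 with IM DNA. In each library the PLT5 summit lay outside the region, so these heights were not reached within it. The summit window gave 332 alignments, which can overlap in a tandem repeat. Values of different baits are relative to their own library's background and are set side by side only.

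The other 6 regions of highest fold enrichment had a GFP peak in 0 to 2 of the 4 GFP libraries. The region chr1:5267780-5269079 lay over 823 bp of CYTOSLEEPER (AT1G15300), which the annotation lists as a pseudogene, and over 189 bp of ATHSRP54A (AT1G15310), a subunit of the signal recognition particle. PLT7 reached 11.2 and 8.48 with SAM DNA and 11.1 and 10.5 with IM DNA, PLT3 5.04 and 4.97 with SAM DNA and 6.18 and 5.09 with IM DNA, and PLT5 2.51 and 2.85 with SAM DNA and 2.69 and 2.87 with IM DNA. The PLT7 values of the tissues overlapped. This region had 1 PLT3 summit in the first and 2 in the second replicate of each tissue.

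The region near AT2G07664 at chr2:3258557-3259691 had PLT7 values of 11.4 and 10.3 with SAM DNA and 10.3 and 10.2 with IM DNA, and no GFP peak. PLT5 there reached 3.24 and 3.78 with SAM DNA and 4.42 and 3.97 with IM DNA, so that the IM was higher. The region near AT5G35760, with 3 consensus matches in the printed window, had PLT7 values of 8.38 and 7.50 with SAM DNA and 9.37 and 9.84 with IM DNA. Again the IM values lay above the SAM values. The regions near AGL36, a MADS-box gene, and at AT4G11373 and AT4G06696 had mean PLT7 values of 9.09, 9.05 and 8.61.

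**Figure D4:**
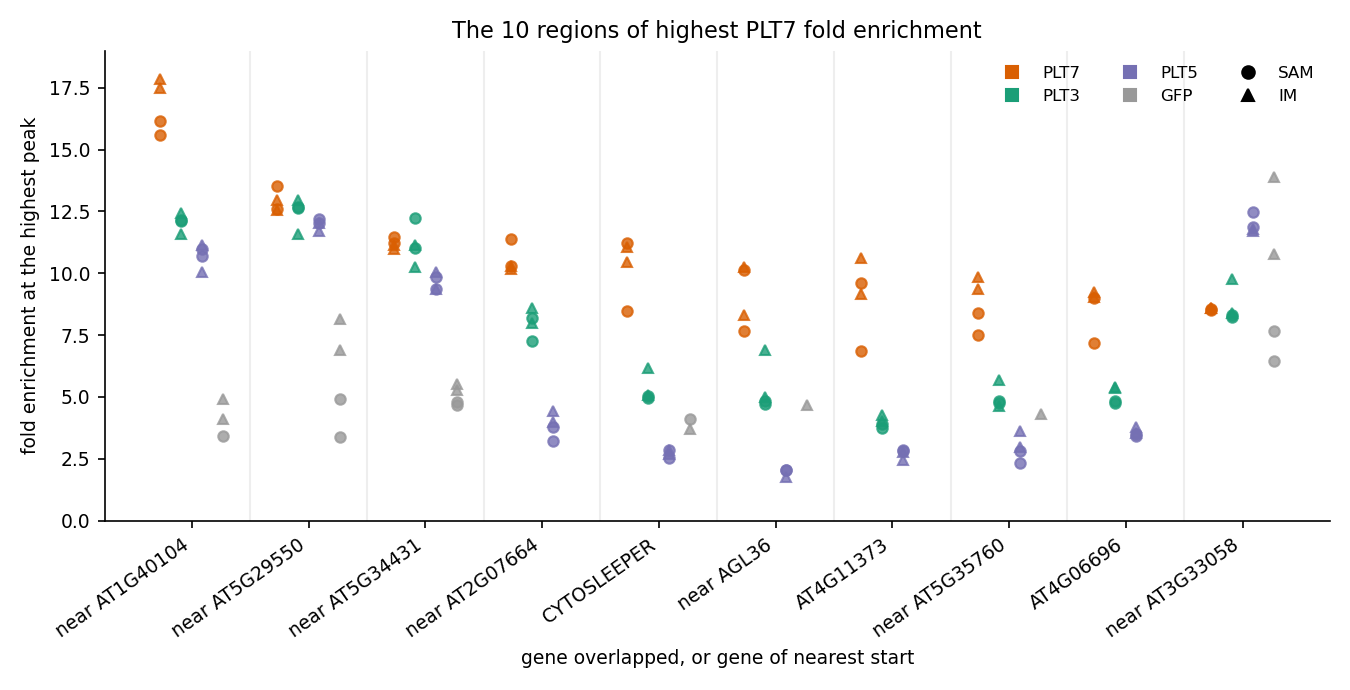
Fold enrichment (y axis) of the highest peak of each bait that shares at least 1 bp with the region. Shown are the 10 regions, broad in all 4 PLT7 libraries, with the highest mean PLT7 fold enrichment. The PLT5 peaks near AT3G33058 had their summits outside the region. Each point is 1 library, circles are SAM and triangles IM, and a library without a peak has no point. PLT7 was highest in every library at AT4G11373 and AT4G06696, where GFP had no peak, while near AT3G33058 the GFP points reached 10.8 and 13.9 in the IM.

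The widest recurrent region had its summit between AT1G49250 and AT1G49260, at chr1:18224167-18226322, and overlapped 159 and 453 bp of them. Its widest PLT7 peak measured 1546 and 1464 bp with SAM DNA and 2102 and 2099 bp with IM DNA, so the IM peaks were longer in both replicates. Its fold enrichment was 5.06 and 4.74 with SAM DNA and 6.46 and 5.83 with IM DNA. GFP also had a peak there in both IM replicates, at 5.86 and 4.93, and none in the SAM replicates. PLT3 had 2 and 3 summits with SAM DNA and 1 and 1 with IM DNA. With 7 PLT3 summits over the 4 libraries, it shared the highest number among the regions broad in all 4. No consensus match was found in it, also with 1 mismatch.

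AT2G13060, a pseudogene in chr2:5374712-5376561, was next in width, with PLT7 peaks of 1850 and 1709 bp with SAM DNA and 1780 and 1760 bp with IM DNA. Its PLT7 fold enrichment was lower than that of most named regions, 5.25 and 4.23 with SAM DNA and 5.30 and 4.54 with IM DNA. It held the most PLT5 summits of all regions broad in 4 libraries, 3 and 2 with SAM DNA and 3 and 1 with IM DNA, but 1 PLT3 summit in each library. AT1G39270, of the same sequence family, held 1 and 2 PLT5 summits with SAM DNA and 2 and 2 with IM DNA, and likewise 1 PLT3 summit per library.

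Wide peaks that were broad in all 4 libraries also lay on the protein-coding genes UBC34 (AT1G17280), a ubiquitin-conjugating enzyme, AAO2 (AT3G43600), an aldehyde oxidase, and AT1G48090. The peak on UBC34 measured 1574 and 1467 bp with SAM DNA and 1575 and 1495 bp with IM DNA and covered its start. PLT5 had a peak there in 1 of 4 libraries. The peak inside AAO2 measured 1610 and 1131 bp with SAM DNA and 1692 and 1655 bp with IM DNA, with fold enrichments of 8.39 and 6.61 with SAM DNA and 9.89 and 7.77 with IM DNA. SAM replicate 2 had the narrowest and lowest peak at both AAO2 and AT1G48090. The remaining 5 regions of the widest 10 lay near AT2G15750 and AT4G09440, at AT2G06290, and near AT1G40104 and AT5G34431, both described above.

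Several PLT3 or PLT5 summits were also found at 3 genes with the PLT7 summit in a coding exon. SD1-13 (AT1G11350), a receptor-like kinase of the S-domain class, held 1 and 2 PLT3 summits with SAM DNA and 1 and 3 with IM DNA. SUFE2 held 2 and 2 PLT5 summits with SAM DNA and 3 and 1 with IM DNA, and CESA6 (AT5G64740), a subunit of the cellulose synthase of primary walls, 2 and 2 with SAM DNA and 2 and 1 with IM DNA. The region at CESA6 had PLT7 values of 7.46 and 7.21 with SAM DNA and 7.55 and 7.32 with IM DNA. The region upstream of and overlapping AT3G28710, a V-ATPase subunit, held 7 PLT3 summits over the 4 libraries and no PLT5 peak, and that at the pseudogene AT4G14610 held 7 PLT5 summits.

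Genes of hormone and meristem pathways were looked up from lists. Of 50 auxin genes 6 were touched, of 50 cytokinin genes 1, and none of 7 genes of the PLT family, of 39 meristem and boundary genes and of 27 flowering genes. Among all protein-coding genes the share was 2.15%, so lists this short can be untouched without differing from other genes. Of these 7 touched genes, only PIN6 lay in a region that was broad in all 4 libraries. The auxin list covers chosen genes of synthesis, transport and response and does not hold IAA15, described above. The other lists are incomplete as well. Regions touched AS2 (AT1G65620), of the LOB domain family, over 42.2% and WOX1 (AT3G18010), a WUSCHEL related homeobox gene, over 43.0%. Neither is on a list.

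The auxin genes belonged to synthesis, transport and response. TAA1 (AT1G70560), the aminotransferase of the first step of auxin synthesis, was covered over 54.8% by the region chr1:26606009-26607541, with the summit in a coding exon. Its peak measured 1417 and 625 bp with SAM DNA and 1418 and 1533 bp with IM DNA, and its fold enrichment was 5.70 and 5.03 with SAM DNA and 5.85 and 5.57 with IM DNA. SAM replicate 2, the only library in which the peak was not broad, was also the lowest. YUC6 (AT5G25620), a flavin monooxygenase of the following step, had a broad peak in IM replicate 2 only, in an intron. Its widths were 609 and 577 bp with SAM DNA and 644 and 1152 bp with IM DNA, at fold enrichments from 3.28 to 4.14.

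PIN6 (AT1G77110), an auxin transporter of the endoplasmic reticulum and plasma membrane, carried peaks of 1117 and 1130 bp with SAM DNA and of 1227 and 1036 bp with IM DNA. They lay inside the gene at chr1:28971361-28972587 with the summit in an intron. PLT7 reached 6.83 and 5.44 with SAM DNA and 7.45 and 6.65 with IM DNA, and PLT3 3.62 and 3.43 with SAM DNA and 3.95 and 3.16 with IM DNA. The tissues overlapped for both baits. PIN4 (AT2G01420), an auxin efflux carrier, had the highest fold enrichment of the listed genes, at its 3′ end (chr2:179532-180649). PLT7 reached 12.0 and 8.59 with SAM DNA and 12.5 and 10.07 with IM DNA, and PLT5 had a peak in all 4 libraries. Its PLT7 peak exceeded 1000 bp in IM replicate 2 only, at 1118 bp, against 815 and 453 bp in the SAM and 929 bp in IM replicate 1.

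NPY5 (AT4G37590), a relative of the organ initiation gene NPY1, and AFB1 (AT4G03190, listed as GRH1), an auxin receptor, each had a broad peak in 1 IM library, in coding exons. NPY5 had PLT7 values of 5.63 and 4.64 with SAM DNA and 5.76 and 5.26 with IM DNA. AFB1 had values of 4.67 and 4.04 with SAM DNA and 4.50 and 3.35 with IM DNA, and no PLT5 peak in any library. IPT8 (AT3G19160), an isopentenyltransferase of cytokinin synthesis, was broad in IM replicate 1 only, with widths of 512 and 297 bp with SAM DNA and 1126 and 748 bp with IM DNA.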

How the data were processed

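Peak lists of 16 DAP-seq libraries were used, grouped by bait and tissue from the sample titles. The authors trimmed reads with fastp 0.23.2, mapped them with BWA 0.7.17, filtered with SAMtools 1.15 and called peaks with MACS3 for each library on its own (q-value 0.1, gaps up to 100 bp joined), before replicates were compared and GFP peaks removed. In the deposited lists, the fold enrichment is a linear ratio over local background, p-values and q-values are given as −log10, and the score is 10 times the −log10 q-value. Build TAIR10 was named, and sequence names matched RefSeq TAIR10.1, which gave genes and sequence. The deposited lists give no counts or read depth.

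Broad peaks were at least 1000 bp wide and were merged at 1 bp. A bait peak was counted in a region by its summit, and a gene as covered at 50% of its length. The fold enrichment of a bait in a region was the highest among its peaks sharing at least 1 bp with the region. Comparisons used exact permutation tests over libraries. The study describes the replicates as biological, each from its own pool of meristems, and p-values rest on 2 of them per tissue. Wilson intervals cover counting error only. Copies were searched with blastn 2.17.0 (E value 1e-10), and other steps used Python 3.11.15, numpy 2.4.6, pandas 2.3.3 and networkx 3.6.1, tested on simulated data. Named regions were the 10 highest, the 10 widest and the 5 with most PLT3 or PLT5 summits among those broad in all 4 PLT7 libraries, and every listed gene touched. The members and lists were chosen with earlier results of these data known. Alternatives were widths of 800 and 1500 bp, a q-value of 0.01, removal of GFP peaks, other rules for merging, counting, genes and motif, the replicate block, and each replicate left out. Comparisons by class of fold enrichment, and at or above the broad median, were added after the data were seen.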

Additional observations from a re-analysis of the deposited data

Results flagged for a closer look

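Broad peaks were also listed on the organelle genomes, which no comparison above uses. Peaks of 1000 bp or more numbered 12 and 12 in the PLT7 SAM libraries and 10 and 10 in the PLT7 IM libraries. The GFP control had 5 and 4 with SAM DNA and 2 and 3 with IM DNA, so that every PLT7 library lay above the controls of its tissue. Organelle peaks of any width were also more numerous for PLT7, at 116 and 121 with SAM DNA and 116 and 117 with IM DNA. For GFP they numbered 64 and 69 with SAM DNA and 70 and 71 with IM DNA. Of the PLT7 peaks, 6 to 9 per library were on the chloroplast genome and 3 or 4 on the mitochondrial genome, while all those of GFP were on the chloroplast genome. The part of sequencing depth in this difference was not tested.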

How the results depend on the processing

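Of 124 values under 25 other settings, 107 were counted as unchanged, 17 as moved and none as reversed. Unchanged values stayed within the spread of the main value or, for tested differences, kept their direction. Numbers of regions and of genes covered have no spread and were judged by their ratio to the main value. By that looser rule 679 regions (main value 881) and 148 genes covered (main value 219) counted as unchanged. Width had the largest effect. At 800 bp there were 2422 regions, 19.3% broad in all 4 libraries, 14.5% overlapping GFP peaks of their tissue (main value 17.4%) and 466 genes covered. At 1500 bp there were 62 regions, 8.07% broad in all 4 libraries, 1.44 PLT3 and 0.968 PLT5 summits per region, 26.2% overlapping GFP and 21 genes covered. With a q-value of 0.01, the overlap with GFP was 14.4%. Genes touched at any base numbered 840, and genes covered whole 59. Leaving out 1 PLT7 library left 679 to 859 regions and 16.2% to 24.8% of them broad in the remaining 3, the highest without SAM replicate 2. Genes covered then numbered 148 to 214.

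The mean differences at the summit stayed above 0 in all settings, but for GFP at a width of 800 bp the mean was 0.0162 ± 0.319 points, positive in 2 of 4 libraries. Without 1 PLT7 library they were 19.3 to 23.0 points for PLT3, 35.7 to 36.9 for PLT5, 0.438 to 1.10 for GFP and 2.14 to 2.51 for the motif. Deviations of same-numbered libraries correlated at -0.00329 for PLT3, -0.00531 for PLT5 and 0.178 for PLT7 over regions. With 2 pairs per bait and no label of a shared batch, the libraries were taken to share only a number. With a replicate block, the differences between SAM and IM remained -0.172 for PLT3 and -0.109 for PLT5 (exact permutation test, p = 0.5 for both, the smallest value possible). Leaving out 1 library gave -0.30 to -0.0310 for PLT3 and -0.135 to -0.0751 for PLT5. The peak lists hold no read numbers, which limits every comparison of width between libraries.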
